A study of Mus musculus with 4 samples.

Results

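Complement is a cascade of secreted proteins with its own receptors and inhibitors, and 9 of its genes are described here in the cortex of APPswe/PS1ΔE9 mice and wild-type mice. They are the 3 chains of C1q (C1qa, C1qb and C1qc), the central components C3, C4a and C4b, the anaphylatoxin receptors C3ar1 and C5ar1, and Serping1, the inhibitor of C1. They were listed by symbol and make up 9 of the 18386 genes and unmatched transcripts of the count table and 13 of its 37539 transcripts. The table writes some symbols in capitals and gives the main C4b transcript the symbol C4a, so that 4 of the 9 were found by symbol as written and 8 in any case. All 9 were found once each transcript identifier was looked up in the GENCODE M21 annotation (GRCm38), and C4a and C4b were told apart in this way.

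Cortex RNA was sequenced from 2 APPswe/PS1ΔE9 mice (APP) and 2 wild-type C57BL/6J mice (WT), all males of 12 months on the C57BL/6 background, with no other treatment. APP mice carry a human/mouse APP gene with the Swedish mutation and a human PS1 gene that lacks exon 9. In this line both transgenes are driven by the mouse prion protein promoter, which is active in neurons and other cells, so the mice model amyloid deposition from overexpressed mutant genes. The libraries are called APP-3, APP-4, WT-1 and WT-2 after the columns of the table, and each is 1 mouse.

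The libraries held 28525117 to 43881196 counts. App, to which reads of the transgene can align, was measured at 2679 and 2388 CPM (counts scaled to the TMM-adjusted library size) in APP-3 and APP-4 and at 857 and 905 CPM in WT-1 and WT-2, higher in APP as the labels have it. The cortical excitatory neuron gene Slc17a7 was present in every library, at 322 and 313 CPM in APP-3 and APP-4 and at 382 and 392 CPM in WT-1 and WT-2. Both APP libraries were lower, with a log2 fold change of -0.29 (SE 0.06, edgeR adjusted p = 0.0818). The APP libraries differed more from each other than the WT libraries did, with a chi-square per degree of freedom of 28.2 against 5.23, where a value near 1 would mean counting error alone. No molecular identifiers were used, and any limit drawn from a count therefore covers counting error alone. For a single gene, the lowest two-sided p an exact permutation of 2 against 2 mice allows is 0.333. The adjusted p-values below come from edgeR's quasi-likelihood test, which shares the spread between genes, with Benjamini-Hochberg adjustment over all 18386 features. A gene was called when its FDR lay below 0.05 and it differed at least 1.5-fold.

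In the classical pathway C1q binds a target and the proteases bound to it cleave C4 and C2, which together form the enzyme that cleaves C3. Fragments of C3 and C4 then tag the target for uptake by phagocytes, and the small fragments C3a and C5a signal through the receptors encoded by C3ar1 and C5ar1. In the brain microglia are the main source of C1q, astrocytes are a known source of C4 and C3, and C1q and C3 take part in the removal of synapses by microglia and are found at amyloid plaques.

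C4a and C4b had to be considered together, because they are close copies. C4b encodes the active component C4, whereas C4a encodes its relative Slp (sex-limited protein). C4b lies at chr17:34728380-34743882 and C4a at chr17:34809092-34823464, both on the minus strand. The main C4b transcript (ENSMUST00000069507, 5379 bases) and the main C4a transcript (ENSMUST00000015595, 5357 bases) were identical at 96.15% of 5357 aligned bases, with 206 differing bases and 22 bases opposite a gap. Over the 5280 windows of 100 bases, the length of a read, 871 (16.5%) held no difference and 4258 (80.6%) held no more than the 7 mismatches the alignment allowed. In the remaining 1022 windows the copies differed at more than 7 bases. The window below lies in exon 11 of both main transcripts and in the coding sequence of C4b. It is shown because no other such window within 1 exon and free of gaps held more differences. GENCODE M21 gives C4a the type processed transcript and not protein-coding, so whether the C4a window is coding was not examined. The first line is C4b at chr17:34740344-34740443 and the second is C4a at chr17:34819863-34819962, both of the minus strand of GRCm38, with the 15 differing bases in capitals.
C4b: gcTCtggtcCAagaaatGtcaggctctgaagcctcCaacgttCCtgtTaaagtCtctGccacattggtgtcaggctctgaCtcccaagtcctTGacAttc
C4a: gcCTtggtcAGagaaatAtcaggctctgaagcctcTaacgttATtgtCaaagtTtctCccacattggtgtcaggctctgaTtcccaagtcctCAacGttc
The counts of the individual C4 genes are therefore uncertain. How reads that fit both copies were counted is not given in the sources used here. Whether the total of the pair is affected was not tested. For the other 7 genes, 0 other genes of the annotation were at least 90% identical to them over 100 or more bases.

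**Figure D1:**
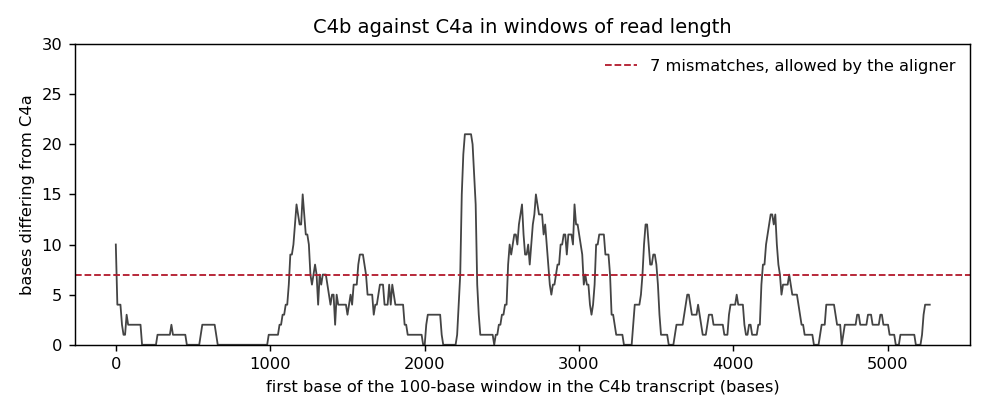
Number of bases at which C4b differs from C4a (vertical axis) in windows of 100 bases along the C4b transcript (horizontal axis, first base of the window). The dashed line is the 7 mismatches allowed in the alignment; 80.6% of windows lie at or under it, and the most a window reaches is 21.

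The 3 C1q genes lie side by side within 18675 bases of chromosome 4, all on the minus strand, in the order C1qb (chr4:136880129-136886187), C1qc (chr4:136889804-136893065) and C1qa (chr4:136895917-136898803). RefSeq promoters (GRCm38.p6, 250 bases before to 50 after the start of transcription) were at hand for 5 of the 9 genes. They are shown for C1qb and C1qc, the C1q genes among these 5, and none was at hand for C1qa. The 2 shown are also the only ones of the 5 that hold the sequence marked below. Capitals mark GAGGAA on either strand, the ETS-type sequence bound by PU.1, a transcription factor of myeloid cells. C1qb is chr4:136886151-136886450 and C1qc is chr4:136892865-136893164, both minus strand.
C1qb: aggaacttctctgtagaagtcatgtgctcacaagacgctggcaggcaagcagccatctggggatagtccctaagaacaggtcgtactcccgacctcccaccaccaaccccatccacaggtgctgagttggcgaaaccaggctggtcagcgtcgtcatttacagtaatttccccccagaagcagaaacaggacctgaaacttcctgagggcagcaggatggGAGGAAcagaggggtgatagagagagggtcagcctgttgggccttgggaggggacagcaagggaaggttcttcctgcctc
C1qc: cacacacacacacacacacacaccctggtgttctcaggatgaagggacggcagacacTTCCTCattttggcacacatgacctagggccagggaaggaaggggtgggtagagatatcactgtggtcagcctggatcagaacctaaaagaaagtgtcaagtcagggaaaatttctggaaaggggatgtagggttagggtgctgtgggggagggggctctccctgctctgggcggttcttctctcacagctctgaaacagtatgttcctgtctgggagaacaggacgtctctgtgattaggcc
The match lies at position -30 from the start in C1qb and, on the opposite strand, at -193 in C1qc. GAGGAA on either strand was present in 28.3% of 32851 RefSeq promoters of this length and in 2 of the 5 available here. Of the other motifs searched on both strands, TATAAA was present in 13.6% of all promoters and in those of C3 and C3ar1, and the interferon regulatory factor motif, GAAA, any 2 bases and GAAA again, in 3.44% and in 0 of the 5. No searched motif overlapped another in the 2 promoters shown.

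Among the C1q genes, which encode the chains of the recognition molecule, C1qa and C1qc were higher in APP and C1qb did not pass the test. C1qa was measured at 47.6 CPM in APP-3 and 59.5 CPM in APP-4, against 24.4 CPM in WT-1 and 26.1 CPM in WT-2. Both APP libraries were above both WT libraries, at 53.5 ± 8.39 CPM against 25.3 ± 1.17 CPM (SD, n = 2 each), a log2 fold change of 1.08 (SE 0.11, edgeR adjusted p = 0.00286). C1qc was at 18.3, 26.1, 11.2 and 11.7 CPM in the same order. Its groups did not overlap either, and its log2 fold change was 0.96 (SE 0.16, edgeR adjusted p = 0.0274). C1qb was at 11.4 CPM in APP-3 and 20.0 CPM in APP-4, against 9.15 CPM in WT-1 and 9.73 CPM in WT-2. APP-3 lay closer to the WT libraries than to APP-4, and the log2 fold change of 0.74 (SE 0.22) had an edgeR adjusted p of 0.21. In all 3 genes APP-4 was the highest library, and the summed level of 15 microglia markers was likewise higher in APP-4 (512.9 CPM) than in APP-3 (452.9 CPM). In bulk tissue more cells of a type and more RNA per cell cannot be told apart.

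C4b and C4a had the largest log2 fold changes of the 9 genes. C4b was at 98.5 CPM in APP-3 and 102 CPM in APP-4, against 17.2 CPM in WT-1 and 13.3 CPM in WT-2. The groups were far apart, at 100.5 ± 2.78 CPM against 15.2 ± 2.72 CPM (SD, n = 2 each), 6.57-fold higher in APP (log2 2.72, SE 0.11, edgeR adjusted p = 1.38e-05). C4a was at 23.7, 25.3, 3.94 and 3.55 CPM in the same order. Its 6.51-fold difference (log2 2.70, SE 0.11, edgeR adjusted p = 1.38e-05) was close to that of C4b, but how the alignment divided reads shared between the copies was not tested. Counts on C4a were 0.240 and 0.247 of those on C4b in APP-3 and APP-4, and 0.229 and 0.267 in WT-1 and WT-2, so the ratio of the copies overlapped between the groups.

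C3, on which all routes of activation converge, was scarce in every library, with 8 counts in APP-3 and 43 counts in APP-4, against 8 counts in WT-1 and 3 counts in WT-2. These are 0.276, 1.39, 0.182 and 0.0846 CPM. APP-4 alone stood clearly above the others, and the log2 fold change of 2.58 (SE 0.81) had an edgeR adjusted p of 0.228. The size of that estimate was near those of C4a and C4b, but its standard error was far above their 0.11.

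Of the receptors, C3ar1, which binds C3a, was higher in APP. It was at 6.93 CPM in APP-3 and 6.13 CPM in APP-4, against 1.93 CPM in WT-1 and 1.95 CPM in WT-2. The libraries of each group were close together and the groups did not overlap, with a 3.36-fold difference (log2 1.75, SE 0.17, edgeR adjusted p = 0.00242). C5ar1, which binds C5a, had 13 counts in APP-3 and 8 counts in APP-4, against 20 counts in WT-1 and 0 counts in WT-2. The WT libraries were the highest and the lowest of the 4, and the log2 fold change of 0.53 (SE 1.01) had an edgeR adjusted p of 0.897. At the depth of WT-2 a count of 0 allows up to 3 counts, or 0.0846 CPM. WT-1 was above this limit, at 0.455 CPM, so the WT mice differed by more than counting error alone. With this spread and so few counts, no difference in C5ar1 between the groups was resolved.

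Serping1, which inactivates the proteases of C1, was the only gene of the 9 with a fold change below 0. It was at 1.86 CPM in APP-3 and 1.84 CPM in APP-4, against 2.25 CPM in WT-1 and 2.31 CPM in WT-2. Both APP libraries lay below both WT libraries, but the log2 fold change of -0.30 (SE 0.21) had an edgeR adjusted p of 0.634.

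**Figure D2:**
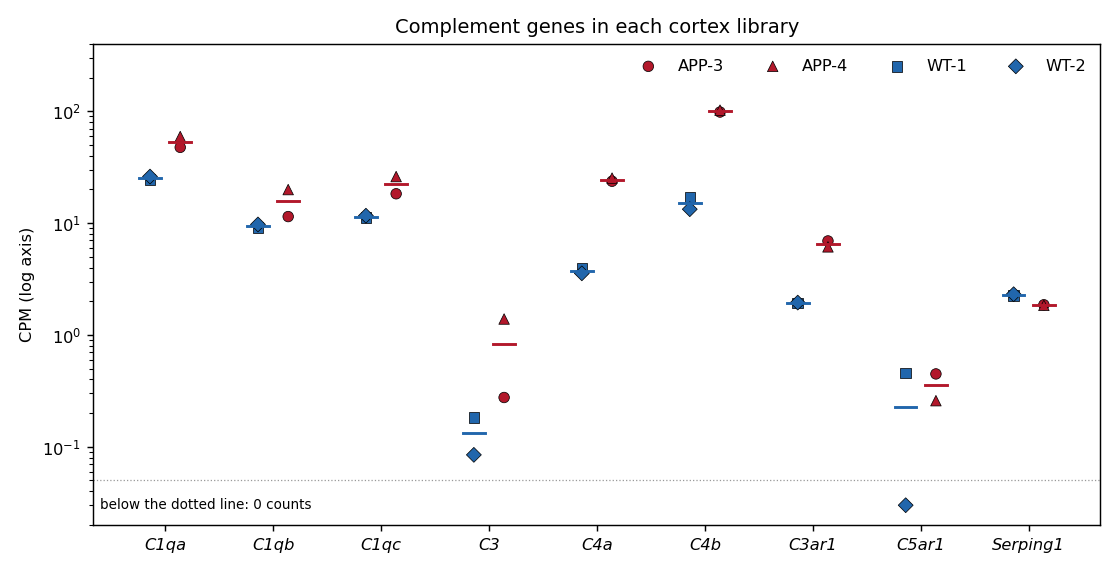
Level of each of the 9 complement genes in CPM (vertical log axis) in the 4 cortex libraries, with APP in red and WT in blue, 1 symbol per library and bars at the group means. C4a, C4b and C3ar1 show the widest gaps between groups, C1qb and C3 the widest spread within APP, and the WT-2 symbol of C5ar1 below the dotted line stands for 0 counts.

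In all, 5 of the 9 genes were called higher in APP (C1qa, C1qc, C4a, C4b and C3ar1), where 0.843% of all features were called higher. C4a and C4b enter these counts and the median separately, although reads fit both copies. Summed, they were called as a single gene (log2 2.71, SE 0.10, edgeR adjusted p = 1.2e-05). The number called lower was 0, where 0.0381% of all features were called lower, and 0 of the 9 were lower at an unadjusted p under 0.05 in edgeR's quasi-likelihood test. Both APP libraries were above both WT libraries in 7 genes, against 21.3% of all features, and below them in 1, against 21.4%. The median log2 fold change was 1.08 over the 9 genes and -0.0011 over all features. DESeq2 called 6 of the 9, adding C1qb (adjusted p = 0.0454), where it called 1.1% of all features in either direction. edgeR's likelihood ratio test also called 6, adding C3 (adjusted p = 0.0438), where it called 2.13% of all features. edgeR's exact test called the same 5 as the main test, where it called 1.93% of all features. At an unadjusted p under 0.05, edgeR's quasi-likelihood test had 7.36% of all features higher and 4.78% lower, which is the background of every such count below.

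Levels were compared between genes as CPM per kilobase. The CPM of each transcript was divided by its own length, and the results were added up within the gene. In WT the order was C1qa (24.3 ± 1.19 CPM per kb, SD, n = 2), C1qc (9.52 ± 0.320), C1qb (8.67 ± 0.405), C4b (2.99 ± 0.452), Serping1 (1.29 ± 0.0279), C4a (0.742 ± 0.0133), C3ar1 (0.45 ± 0.00333), C5ar1 (0.0914 ± 0.129) and C3 (0.0259 ± 0.0133). C1qa thus stood above all others, and only C5ar1 and C3 overlapped between libraries. In APP C4b moved up to place 2 at 19.6 ± 0.365 CPM per kb, behind C1qa at 51.5 ± 7.56 and beside C1qc at 18.5 ± 4.38 and C1qb at 14.4 ± 5.39. Here C4b overlapped with C1qc, C1qc with C1qb, and C3 (0.161 ± 0.152) with C5ar1 (0.143 ± 0.0556). C4a (4.91 ± 0.341) and C3ar1 (1.52 ± 0.146) passed Serping1 (1.05 ± 0.0189) in APP.

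The ratios between genes within a library, which do not depend on scaling to depth, are given as a description. C4b had 2.07 counts per count of C1qa in APP-3 and 1.72 in APP-4, but 0.702 in WT-1 and 0.510 in WT-2. C3ar1 had 0.146 and 0.103 counts per count of C1qa in APP-3 and APP-4 and 0.0791 and 0.0746 in WT-1 and WT-2. Both ratios were thus higher in the APP libraries without overlap. The share of all pairs of genes whose ratio separates the groups in this way was not computed. Within C1q, the level per kb of C1qa over that of C1qb was 4.35 and 3.12 in APP-3 and APP-4, and 2.79 and 2.80 in WT-1 and WT-2. The C1q chains, which assemble in equal numbers in the protein, were thus measured at unequal levels in every library. In this ratio the WT libraries were nearly alike, both APP libraries lay above them, and APP-3 stood furthest off. The same ratio of C1qc over C1qb was 1.45, 1.19, 1.11 and 1.09, again without overlap between the groups.

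Counted by transcript, 5 of the 13 transcripts were called higher and 0 lower, where 0.749% of all 37539 transcripts were called higher and 0.0586% lower. At an unadjusted p under 0.05, 0 of the 13 were lower. Those called were the only transcripts of C1qa and C3ar1 and the main transcripts of C1qc, C4a and C4b. edgeR's exact test called 8 of the 13, against 1.15% of all transcripts. The other 4 transcripts of these genes were scarce. That of C1qc had 10 counts in APP-3 and 7 counts in APP-4, against 3 counts in WT-1 and 8 counts in WT-2, so its groups overlapped. A retained-intron transcript of C4a had 6 counts in APP-3 and 14 counts in APP-4, against 0 counts in WT-1 and 3 counts in WT-2. A transcript of C4b annotated for nonsense-mediated decay had 13, 10, 3 and 4 counts, and its retained-intron transcript 8, 14, 2 and 2. In each of the 3 C4 transcripts the APP libraries were above the WT libraries, as in 19.9% of all transcripts, with edgeR adjusted p-values of 0.278, 0.290 and 0.176. Nearly all C4 counts were thus assigned to the main transcripts. How the alignment divided reads that fit more than 1 transcript of a gene was not tested.

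Each library was left out in turn to see which values 1 mouse decides. The log2 fold changes stayed between 2.64 and 2.78 for C4a, 2.55 and 2.92 for C4b, 1.66 and 1.84 for C3ar1, 0.92 and 1.24 for C1qa, and 0.68 and 1.19 for C1qc, and all 5 calls were kept. C1qb fell to 0.28 without APP-4 and reached 1.08 without APP-3, where it was called (edgeR adjusted p = 1.45e-08). C3 was at 0.99 without APP-4 and at 3.30 without APP-3, where it was called as well (edgeR adjusted p = 0.000189). With 1 APP library left the spread comes from the 2 WT libraries alone, so these p-values assume that APP mice vary as little as WT mice. C5ar1 changed sign to -0.37 without WT-2. Serping1 stayed between -0.32 and -0.28.

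**Figure D3:**
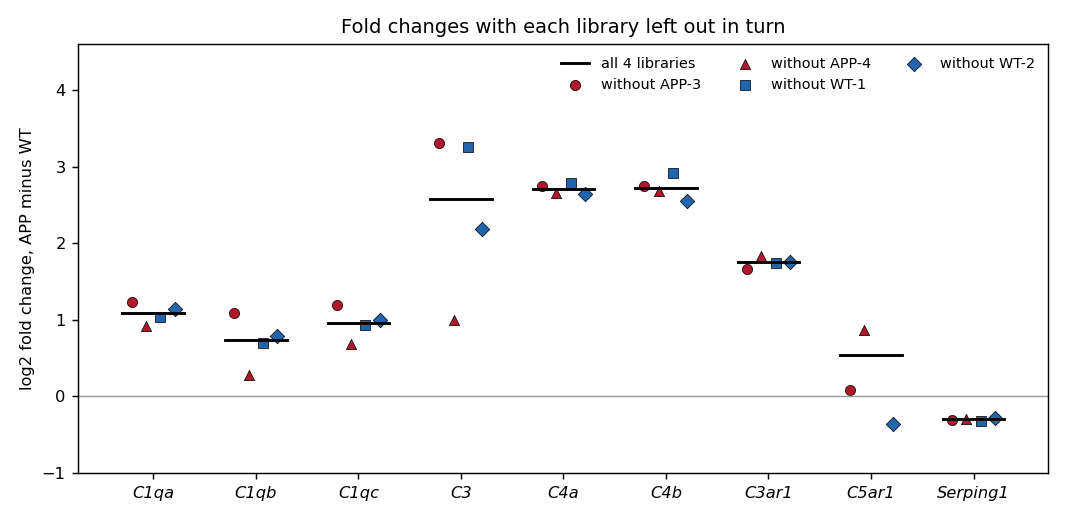
Log2 fold change of each of the 9 genes, APP minus WT (vertical axis), with all 4 libraries (black bars) and with each library left out in turn (symbols). C4a, C3ar1 and Serping1 hardly move, and C4b ranges from 2.55 to 2.92. C1qb and C3 depend on which APP library is kept, and C5ar1 without WT-1 is not drawn because WT-2 has 0 counts.

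The genes beside the complement loci were examined to see whether whole regions moved. Within 100 kb of the C1q cluster 3 other genes were measured, with log2 fold changes of -0.10 to 0.24. Within the same distance of the C4 genes 13 were measured, from -0.22 to 0.82, among them the complement gene C2 at -0.08 (SE 0.27). Of these 16, edgeR called 0. Around Serping1, C3ar1 and C5ar1, 10, 6 and 8 genes were measured and edgeR called 0 of them. DESeq2, the exact test and the likelihood ratio test also called 0 in these 5 regions. Near C3, 1 of 4 was called, the haematopoietic signalling gene Vav1 (log2 1.14, SE 0.19, edgeR adjusted p = 0.0305). Over all 6 regions 2 neighbours were higher, Vav1 among them, and 3 lower at an unadjusted p under 0.05, of 44 measured. The microRNA gene Mir6978 overlaps C3 in the annotation.

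A further 53 genes of the complement system were listed by role, of which 33 were measured and the other 20 were not analysed here. Of the 33, 2 were called higher by edgeR and 0 lower, their median log2 fold change was -0.0002, and 16 were above and 17 below 0. At an unadjusted p under 0.05, 5 of the 33 were higher and 2 lower. DESeq2, the exact test and the likelihood ratio test each called 3, where they called 1.1%, 1.93% and 2.13% of all features. Both called genes were receptors for C3 fragments. Itgax, the alpha chain of complement receptor 4, was at 7.38 CPM in APP-3 and 7.07 CPM in APP-4, against 0.364 CPM in WT-1 and 0.367 CPM in WT-2 (log2 4.29, SE 0.21, edgeR adjusted p = 3.21e-05). Itgb2, the beta chain it shares with complement receptor 3, was at 6.96, 5.78, 2.75 and 2.82 CPM (log2 1.19, SE 0.17, edgeR adjusted p = 0.0156). Itgam, the alpha chain of complement receptor 3, was at 22.2, 30.3, 17.8 and 17 CPM. Its groups did not overlap, but its log2 fold change of 0.59 (SE 0.13) had an edgeR adjusted p of 0.0942, while DESeq2 gave 0.0116.

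The proteases that act beside C1q and the later steps of the cascade were listed separately. Of the classical and lectin proteases and C2, 6 of 7 were measured and 0 called, and Masp1, the most abundant, had a log2 fold change of -0.24 (SE 0.18). C1ra, which encodes the protease C1r, was lower at an unadjusted p of 0.0198 but not after adjustment (log2 -0.63, SE 0.22, edgeR adjusted p = 0.281). Of the lectin recognition, alternative and terminal pathway lists, 2 of 7, 1 of 3 and 3 of 7 were measured, 0 were called, and 0 had an unadjusted p under 0.05. Colec12 (a collectin), Cfp (properdin, which stabilises the alternative C3 convertase) and C7 (a part of the membrane attack complex) led these lists in level, with log2 fold changes of -0.06 (SE 0.07), 0.02 (SE 0.22) and 0.56 (SE 0.41). Summed by deposited symbol C7 would be at 0.01 (SE 0.08), because the table gives that symbol to transcripts which GENCODE M21 assigns to Cbx3. DESeq2, the exact test and the likelihood ratio test also called 0 in these 4 lists.

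Of the regulators in blood or on membranes, 8 of 15 were measured, and edgeR, DESeq2, the exact test and the likelihood ratio test called 0. Clu, which encodes clusterin, an inhibitor of the terminal complex, was at 328, 344, 256 and 249 CPM and passed the FDR, as 1.02% of all features did in this direction, but not the fold cut-off (log2 0.41, SE 0.06, edgeR adjusted p = 0.0236). The APP libraries were above the WT libraries. Cd55, which speeds the decay of C3 convertases, was lower at an unadjusted p of 0.0233 (log2 -0.39, SE 0.14, edgeR adjusted p = 0.304). The brain regulators with CUB or sushi domains, all 8 measured, had log2 fold changes of -0.07 to 0.23. Csmd1, the most abundant of them, was at -0.07 (SE 0.07). Of these 8 edgeR called 0, with 0 at an unadjusted p under 0.05.

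Proteins that share the C1q domain but act outside the cascade gave a comparison with C1q itself. Of 22 such genes 17 were measured, with a median log2 fold change of -0.18, and edgeR, DESeq2, the exact test and the likelihood ratio test called 0. At an unadjusted p under 0.05, C1qtnf2 was higher and C1qtnf4 lower. C1ql3, a synaptic protein and the most abundant of them, was at -0.25 (SE 0.12, edgeR adjusted p = 0.463).

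**Figure D4:**
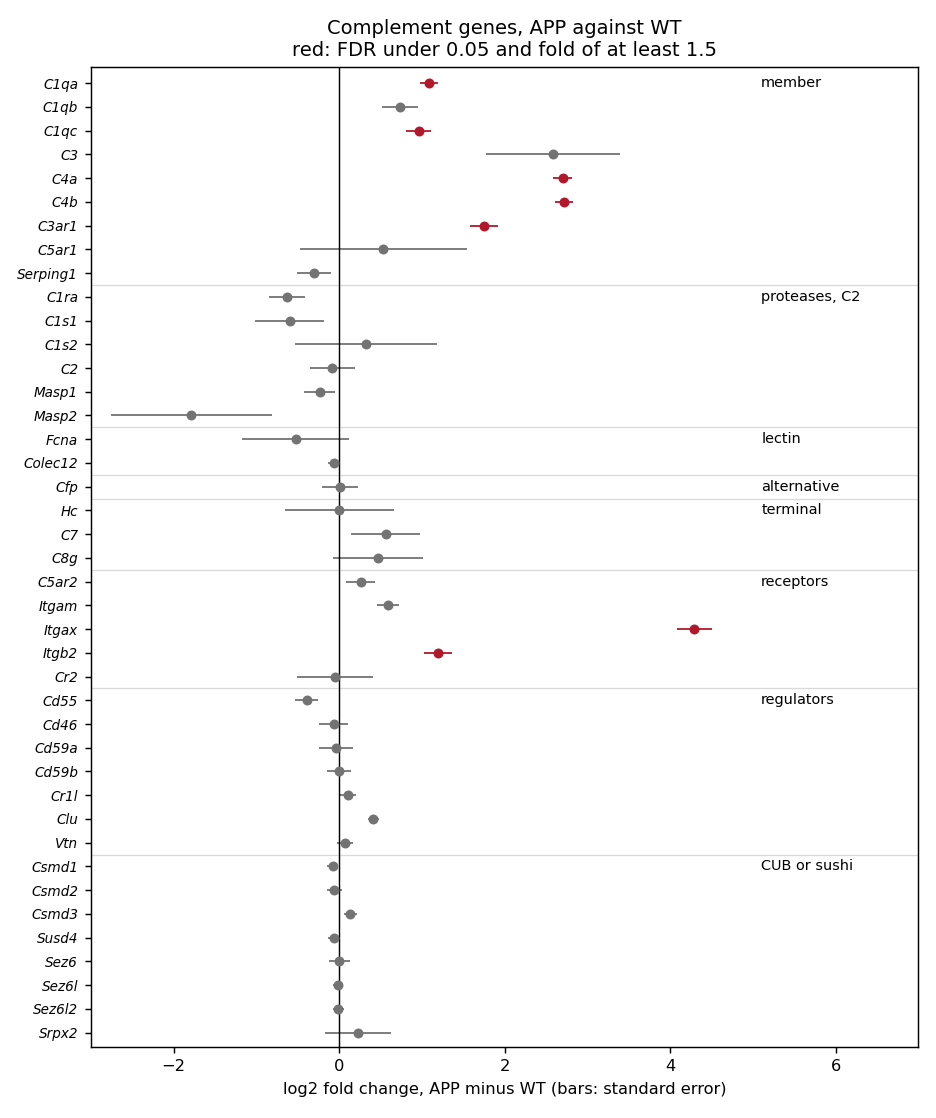
Log2 fold change, APP minus WT (horizontal axis, bars are standard errors), of the 9 complement genes and of 32 of the 33 other measured complement genes by role. Red points passed both cut-offs: 5 of the 9 at the top and 2 of the 32 below, Itgax and Itgb2.

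Marker lists of the cell types in cortex were read beside the complement genes. Of 15 microglia markers 9 were called higher and 0 lower, 13 were higher at an unadjusted p under 0.05, and DESeq2, the exact test and the likelihood ratio test each called 12. Their median log2 fold change was 0.80, and their summed level was 452.9 and 512.9 CPM in APP-3 and APP-4 against 273.5 and 277.0 CPM in WT-1 and WT-2. C1qa at 1.08, C1qc at 0.96 and C1qb at 0.74 lay within the range of these markers, 0.30 to 1.37, as did C5ar1 at 0.53. C3ar1, C4a, C4b and C3 lay above it, though C3 was not called, and Serping1 lay below it. Of 12 astrocyte markers 2 were called higher, Gfap (log2 2.82, SE 0.09, edgeR adjusted p = 8.08e-06) and Aqp4 (0.72, SE 0.08, edgeR adjusted p = 0.00384), with a median of 0.19 over the list. Slc1a2, the astrocyte glutamate transporter and the most abundant, was at 0.16 (SE 0.07). Of 12 oligodendrocyte markers, 1 was called, Mag (log2 0.70, SE 0.10, edgeR adjusted p = 0.0182), and 4 passed the FDR. The median of the list was 0.46, with an unadjusted p under 0.05 in all 12 and both APP libraries above both WT libraries in all 12. The exact test and the likelihood ratio test each called 3 of them and DESeq2 called 1. Their part in the complement differences was not tested.

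In the remaining lists the median log2 fold changes were -0.10 over 12 endothelial markers, -0.15 over 10 fibroblast and meningeal markers, -0.10 over 12 neuron markers, -0.11 over 5 measured choroid plexus markers of 8, and 0.50 over 5 measured blood leukocyte markers of 10. In these lists edgeR, DESeq2, the exact test and the likelihood ratio test called 0. At an unadjusted p under 0.05, 1 of their 44 genes was higher and 4 were lower. The leukocyte markers summed to 2.69 and 3.10 CPM in APP-3 and APP-4 and to 2.75 and 2.54 CPM in WT-1 and WT-2, far below C4b alone. Their most abundant genes were Slco1a4 at a log2 fold change of 0.05 (SE 0.08), Pdgfra at 0.24 (SE 0.06), Map2 at 0.03 (SE 0.07), Clic6 at 0.76 (SE 0.39) and Ms4a1 at -0.24 (SE 0.26), in the order of the lists.

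**Figure D5:**
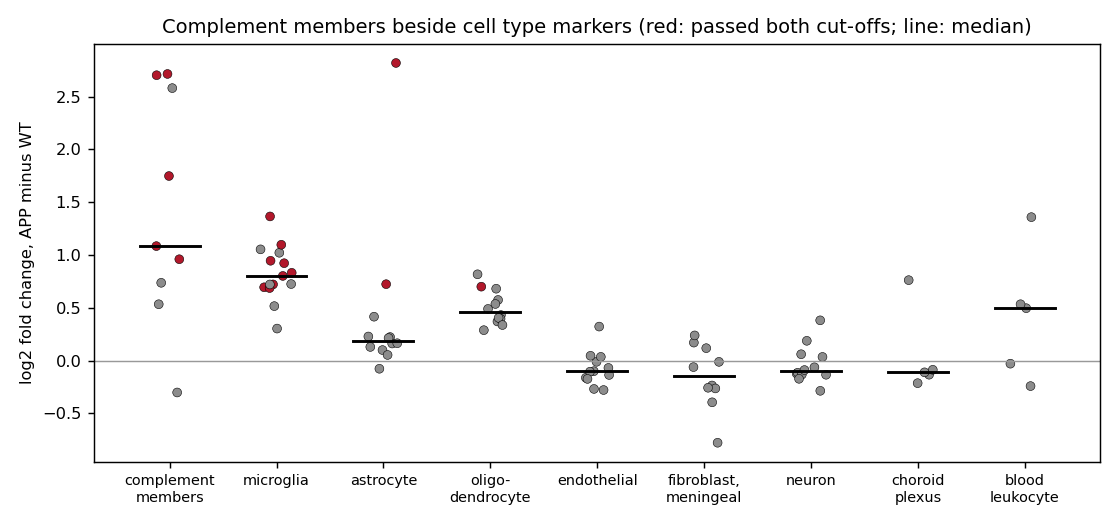
Log2 fold change, APP minus WT (vertical axis), of the 9 complement genes and of the markers of 8 cell types, 1 point per gene, red where both cut-offs were passed and bars at the medians. The complement genes have a median of 1.08 and the microglia markers one of 0.80, while the medians of endothelial, fibroblast, neuron and choroid plexus markers lie between -0.15 and -0.10.

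Each gene was also expressed relative to the mean log2 level of the 15 microglia markers in its own library, a scaling chosen after the data had been seen. On this scale C4b (difference 1.92, APP minus WT, log2), C4a (1.88), C3ar1 (0.91) and C1qa (0.26) stayed higher in both APP libraries than in both WT libraries. C1qc (0.12), C1qb (-0.13), C3 (1.10) and C5ar1 (0.41) overlapped between the groups. Serping1 was lower in both APP libraries, with a difference of -1.10, where its log2 fold change without this scaling was -0.30. Because the markers were higher in APP, a gene with equal CPM in both groups would also come out lower in APP here. No test was made on this scale, and the markers are themselves among the genes that differ between the groups. The share of all features whose groups lie apart on this scale was not computed.

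Genes whose profile over the 4 libraries was nearest to that of a complement gene were found by the distance between log2(CPM + 1) values centred on the WT mean, over 14660 genes of at least 1 CPM on average. With 4 libraries, such likeness mostly reflects the difference between groups and how APP-3 and APP-4 differ. Nearest to the mean of the C1q genes were Dock2, an activator of Rac in blood cells (distance 0.125), Laptm5, a lysosomal membrane protein of blood cells that is also on the microglia list (0.152), Sparc, a secreted matrix protein (0.166), Unc93b1, which carries Toll-like receptors (0.181), and Calb2, the calcium-binding protein calretinin (0.186). Dock2, for example, was at 7.93 CPM in APP-3 and 11.2 CPM in APP-4, against 4.71 CPM in WT-1 and 4.49 CPM in WT-2. Their log2 fold changes ran from 0.80 in Sparc to 1.07 in Calb2, which the choice by profile fixes to be near those of C1q. Nearest to C4b were Itgax (0.272), Gfap, the intermediate filament of astrocytes (0.413), Ccl6, a chemokine (0.825), Lyz2, lysozyme (1.03), and Clec7a, the receptor Dectin-1 (1.09). Gfap was at 327 CPM in APP-3 and 372 CPM in APP-4, against 46.9 CPM in WT-1 and 52.3 CPM in WT-2. A gap between groups near that of C4b is fixed by the choice by profile here too. Itgax, Ccl6 and Clec7a lay below 1 CPM in both WT libraries and passed the limit of 1 CPM only through APP. The added 1 CPM shrinks their differences, so that Itgax and Clec7a, with log2 fold changes of 4.29 and 6.53, came near C4b at 2.72 on this scale.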

How the data were processed

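Cortex RNA of single mice went through ribosomal RNA depletion and strand-specific paired sequencing. The authors removed reads that mapped to ribosomal RNA in SILVA, aligned the rest with FANSe2 to Ensembl mouse RNA sequences with up to 7 mismatches, and deposited the raw count of reads per transcript, without normalization. The Ensembl release is not given in the sources used here. The submitters' processing notes name CASAVA 1.8 and edgeR, and a human build, hg19, that does not apply to mouse transcripts. By column number each WT library could be tied to 1 mouse, whereas the APP columns, numbered 3 and 4, could be tied only to the APP group. The file also holds 4 columns of the authors' edgeR comparison (fold change, mean level, p-value and FDR) and 4 further columns of values per library, neither of which were used.

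Transcript counts were added up within each gene of GENCODE M21, which matched 98.2% of transcripts, and 681 unmatched transcripts were kept as they were. Every feature had at least 10 counts over the libraries. TMM factors ranged from 0.9866 to 1.017. The main test was edgeR 4.0.16 (quasi-likelihood, no covariate) in R 4.3.3. Alternatives were DESeq2 1.42.0, edgeR's exact test, its likelihood ratio test, unscaled library totals, TMM over protein-coding genes, 10 counts in every library, no filter, sums by deposited symbol, C4a and C4b summed, and leaving out each library. Sequences were compared with blastn 2.17.0 and Biopython 1.88.

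The 9 genes and all lists were chosen with earlier results of these data known. Genes named are the 9, other complement genes past the FDR, the most abundant gene of each list, and the 5 nearest in profile to C1q and to C4b. App, Slc17a7, C2, Vav1, Mir6978, C1ra, Cd55, C1qtnf2, C1qtnf4, Cbx3, Aqp4 and Mag were named outside this rule, most of them after their values were seen. Further genes of this rule are not reported here.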

Additional observations from a re-analysis of the deposited data

How the results depend on the processing

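The 5 called genes kept direction and call in every alternative that tested them singly, and C4a and C4b summed were called as 1 gene. The number called of the 9 was 5 in the main test and 5 to 7 with each library left out. The median log2 fold change of the 9 was 1.08 and ranged from 0.92 to 1.74 with a library left out; 1.74 was reached without WT-1, where C5ar1 has 0 counts in WT, and relative to the microglia markers the median difference was 0.41, which is the value of the scarce C5ar1. Other complement genes called were 2, and 2 to 5 with a library left out, the 5 without APP-3. edgeR's exact test called 8 of the 13 transcripts in place of 5; the cause was not tested. Log2 fold changes that changed sign with a library left out were those of C5ar1 (-0.37 to 6.50, the latter fitted against 0 counts and no bound), Cfp (-0.12 without APP-3, -0.13 to 0.20 in all), Slco1a4 (-0.0022 without APP-4, -0.013 to 0.11 in all), Map2 (-0.048 to 0.12) and Clic6 (-0.030 to 1.27, called without APP-3). Dock2 lost its call without WT-2 (edgeR adjusted p = 0.0905). A lone library was assumed to vary like the other group. The sources used here give no pairing of WT with APP mice, so no paired analysis was made. The APP columns also carry the numbers 3 and 4, which the labels of the mice do not. C3 and C5ar1, with 3 to 43 and 0 to 20 counts per library, were scarce and differed widely between mice of the same group. No firm fold change can be given for them.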
